A study of Mus musculus with 36 samples.

Results

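Mouse motor neurons kept for 3 days in medium conditioned by astrocytes that overexpress mutant SOD1 (mSOD1) were compared with motor neurons kept as long in medium of non-transgenic astrocytes (NTg). The comparison holds the 6 libraries labelled mSOD1 on day 3 and the 6 labelled NTg on day 3, 12 of the 36 libraries of the series, and all 15207 genes that could be tested. The neurons were differentiated from embryonic stem cells of the Hlxb9-GFP1Tmj line, whose cells express eGFP, alone or together with CD2, under the promoter of the motor neuron gene HB9 (Mnx1). A magnetic sort for the surface marker CD2 enriched the neurons before plating. The mutant astrocytes carried G93A SOD1, and the third medium of the series came from astrocytes overexpressing wild-type SOD1 (wtSOD1). Every medium received the same additions, glucose (4.5 mg/ml), antibiotics and the trophic factors CNTF (10 ng/ml), BDNF (1 ng/ml) and GDNF (0.5 ng/ml), and was filtered. The labels name no SOD1 transgene for the neurons, so the genotype is that of the astrocytes that made the medium.

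Several points limit the model. Newborn pups from matings of transgenic with non-transgenic mice gave the astrocytes, from either spinal cord or cortex, and the sources used here do not say which of these made the medium of a library. After 2 weeks the astrocyte cultures were 95% GFAP-positive and 5% CD11b-positive, and the microglia were then shaken off. Replicates carry an experiment number from 1 to 6 that mSOD1 and NTg libraries share, and nothing says that they came from separate differentiations, so p-values measure the spread between these samples.

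Dominant mutations of SOD1, a superoxide dismutase, cause a familial form of amyotrophic lateral sclerosis, in which motor neurons die. Astrocytes that carry the mutation harm motor neurons through factors they release. Among the signals that reach motor neurons from glia are cytokines of the CNTF and LIF family, which bind receptors that share the chain gp130 and activate STAT3 through JAK kinases.

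The 12 libraries held 10.5 to 16.9 M reads on genes in mSOD1 medium and 11.6 to 42.2 M in NTg medium. NTg experiment 1 was the library of 42.2 M, and the other NTg libraries reached at most 16.2 M. The transcripts of motor neurons were present in every library. Mnx1 ranged from 28 to 42.4 CPM (counts per M reads) in mSOD1 medium and from 26.1 to 49.5 CPM in NTg medium, Chat, which makes acetylcholine, from 78.8 to 116 CPM and from 63.3 to 102 CPM, and neuronal tubulin Tubb3 from 699 to 1040 CPM and from 583 to 896 CPM. The groups overlapped in each of these genes. Other cells were present as well, since 39 genes of DNA replication summed to 1200 to 1572 CPM in mSOD1 medium and 1445 to 1778 CPM in NTg medium. Genes of connective tissue summed to 5885 to 7355 CPM and to 6530 to 7940 CPM. The microglial gene Aif1 stood at 0.0935 to 0.693 CPM and at 0.0771 to 0.479 CPM, and 13 of 18 microglial and macrophage genes were below 1 CPM in all 12 libraries. In a principal component analysis of the 12 libraries the first component, with 25.8% of the variance, placed mSOD1 libraries between -27.7 and 3.75 and NTg libraries between -7.62 and 22.4. NTg experiment 1 (-7.62) and mSOD1 experiments 2 (3.75), 4 (1.11) and 5 (-4.92) lay within the range of the other group.

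Of the 15207 genes, 443 (2.91%) passed an adjusted p below 0.05 in edgeR's quasi-likelihood test fitted to all 36 libraries. Of these 339 (2.23% of the genes tested) rose and 104 (0.684%) fell in mSOD1 medium. The differences were small. Of the rises 313 and of the falls 89 were under 1.5-fold, and 6 genes differed by more than 2-fold. Of the 339 rises 330, and of the 104 falls 101, went the same way in 6 of 6 same-numbered pairs, against 3884 of all 15207 genes. The passing genes were picked by p from the same libraries, which favours such agreement, so it gives no separate support. The 6 libraries of each medium did not overlap in CPM in 96 of the rises and 51 of the falls, against 334 of all 15207 genes (2.2%). The choice by p favours this too, so a lack of overlap, here and in genes named below, gives no separate support. By edgeR's unadjusted p below 0.05, 1721 of the 15207 genes were higher and 1221 lower, which is the background for such counts below. DESeq2, another tool, gave an adjusted p to 12845 of the genes and called 715 of these, 525 rising and 190 falling. The remaining genes had no adjusted p by DESeq2 and could not pass in it, which limits its counts in lists with genes at low levels.

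**Figure D1:**
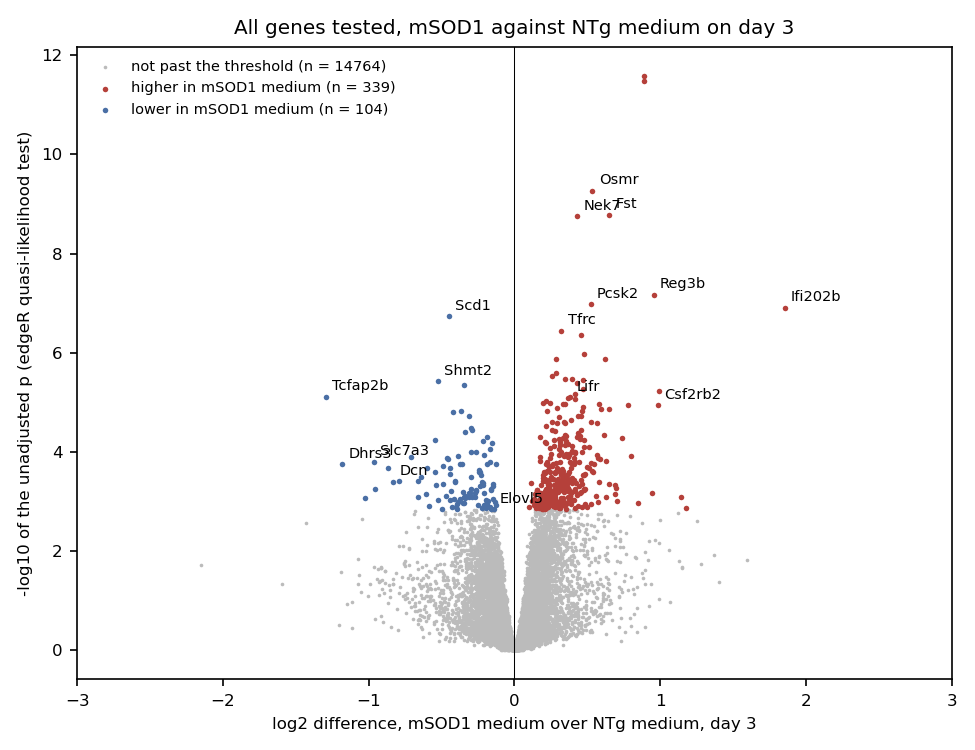
Each point is 1 of 15207 genes, placed by its log2 difference between mSOD1 and NTg medium on day 3 (horizontal axis) and by -log10 of its unadjusted p in edgeR's quasi-likelihood test (vertical axis). The 339 genes higher in mSOD1 medium are red, the 104 lower are blue, and the cytokine receptor Osmr stands among the genes with the smallest p.

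The experiment number carried variation that both media shared, most clearly in experiments 1 and 2. The deviations that libraries of 1 experiment showed from the means of their groups correlated at 0.476 and 0.352 in these 2 pairs. In experiments 3 to 6 they correlated at 0.104 to 0.142, below the highest value of 0.145 over the 30 combinations of different numbers. The mean of these 30 was -0.044, which largely follows from the mean of the 6 pairs, because deviations within a group sum to 0. Of the 12 libraries 9 correlated best with the library of their own number. With experiment as a block in the 18 libraries of day 3, 4274 of 14893 genes (28.7%) passed, 2271 (15.2%) rising and 2003 (13.4%) falling, and all 339 rises and 104 falls passed in the same direction. Values "with the block" below come from this fit. Leaving out 1 of the 6 experiments from it gave 3552 to 4035 genes.

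Without the block, the number of genes depended on single libraries. Leaving out mSOD1 experiment 1, 3 or 6 gave 108, 78 or 202 genes, and leaving out mSOD1 experiments 2 or 4 gave 867 or 627. Leaving out NTg experiment 1 gave 1133 genes, and leaving out NTg experiments 2, 4, 5 or 6 gave 92, 118, 200 or 187. Without mSOD1 experiment 5 or NTg experiment 3 the counts were 444 and 454. No passing gene changed sign in any of these fits. The genes named below that passed went one way in 6 of 6 pairs, except Serpina3h and Gabrg3, which did so in 5 of 6. Of the 443 genes, 59 rises and 10 falls passed whichever library was left out, and 25 rises and 4 falls passed also whichever whole experiment was left out. The 25 rises were the cytokine receptors and their targets Osmr, Il6st, Csf2rb2, Reg3b and Serpina3n, the interferon-inducible genes Ifi202b, Ifi27l1 and Ifi27l2a, and Fst, Nek7, Pcsk2, Tfrc, Rdh10, Gcnt2, Gfra2, Mfap3l, Atrnl1, Anks1b, Prdm1, Ggh, Ktn1, Rnf152, Sdk1, Sphkap and Spock3. The 4 falls were Mthfd2, Shmt2, Scd1 and Tcfap2b. Another gene of the annotation overlaps Art3, Acvr1, B2m, Cacna2d3, Cntf, Grid1, Lig1, Nefh, Nrp1, Pcdh17, Pfn1, Ptbp1, Rtp4, Scn9a and Srebf1, so reads may be shared there, and other overlaps are given beside the gene.

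How did receptors of the gp130 family, whose cytokines act through gp130 and JAK kinases on STAT3, differ between these bulk cultures? Of 6 receptor chains 3 rose and 0 fell in mSOD1 medium (4 and 1 with the block), with 4 estimates above 0 and 2 below. None of the family's tested ligands passed. Which cells of the cultures held these transcripts was not tested. Osmr (gene ID 18414), the receptor chain for oncostatin M, had 39.1 to 49.3 CPM in mSOD1 medium (median 44) against 27.7 to 34.1 CPM in NTg medium (median 29.4). Every mSOD1 library was above every NTg library (0.54 ± 0.065, adjusted p = 2.72e-06, higher in 6 of 6 pairs, log2 difference ± SE here and below, followed by the adjusted p also where it is not named). Lifr (16880), the chain that binds LIF and takes part in the CNTF receptor, had 375 to 453 CPM in mSOD1 medium (median 394) against 277 to 340.4 CPM in NTg medium (median 313). Il6st (16195), gp130 itself, had 243 to 288 CPM in mSOD1 medium (median 250.4) against 211 to 232 CPM in NTg medium (median 217). Neither overlapped between the media (Lifr 0.38 ± 0.073, adjusted p = 0.00439; Il6st 0.22 ± 0.042, adjusted p = 0.00464). The chain that confers specificity for IL-6, Il6ra, had 7.03 to 11.8 CPM in mSOD1 medium (median 10.6) against 6.6 to 8.95 CPM in NTg medium (median 7.83) and passed with the block only (0.39 ± 0.16, adjusted p = 0.159, 0.00139 with the block). Cntfr, the chain that binds CNTF, went the other way, with 60.8 to 71 CPM in mSOD1 medium (median 66.7) against 68.5 to 74 CPM in NTg medium (median 71.7) (-0.10 ± 0.059, adjusted p = 0.354, 0.0262 with the block).

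The ligands of the family that could be tested did not pass. In this list 0 of 5 genes tested rose and 0 fell (0 and 0 with the block), with 3 estimates above 0 and a median log2 difference of 0.03. Cntf itself had 1.1 to 2.15 CPM in mSOD1 medium (median 1.88) against 1.58 to 2.46 CPM in NTg medium (median 1.89) (-0.16 ± 0.20, adjusted p = 0.715). Clcf1 had 13.4 to 19.6 CPM in mSOD1 medium (median 16) against 12.4 to 16.6 CPM in NTg medium (median 15) (0.15 ± 0.13, adjusted p = 0.55), and the groups overlapped in both genes. In the ligand list 0 genes stood at an unadjusted p below 0.05 in edgeR's test. By DESeq2 0 passed, beside 715 of 12845 genes, but Cntf had no adjusted p there and could not pass. The CNTF protein added to all media was not measured.

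Among kinases and transcription factors downstream, 1 of 11 rose and 0 fell (5 and 0 with the block). The gene that rose was Jak2, a kinase bound to the receptor chains, with 98.3 to 105 CPM in mSOD1 medium (median 102) against 84.4 to 95 CPM in NTg medium (median 88.8) (0.19 ± 0.049, adjusted p = 0.0268). Its groups did not overlap, but its adjusted p reached 0.0847 when 1 library was left out. Stat3, the main transcription factor of gp130 signalling, had 331 to 397 CPM in mSOD1 medium (median 353) against 302 to 356 CPM in NTg medium (median 316) (0.15 ± 0.049, adjusted p = 0.0905, 8e-06 with the block).

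Genes known as targets of STAT3 gave 3 rises in a list of 18, against 9 with the block, and a median log2 difference of 0.17, beside a median of -0.0063 over all genes tested. The largest differences were those of Reg3b and Serpina3n. Reg3b (18489), a secreted lectin that injured neurons make, had 49.4 to 84 CPM in mSOD1 medium (median 58.9) against 21.8 to 43.5 CPM in NTg medium (median 29.8) (0.95 ± 0.14, adjusted p = 0.00017). Serpina3n (20716), a secreted protease inhibitor of a family with close paralogs, had 52.8 to 86.5 CPM in mSOD1 medium (median 54.9) against 23.1 to 44.2 CPM in NTg medium (median 29.3) (0.99 ± 0.18, adjusted p = 0.00367). In both genes mSOD1 experiment 1 held the highest level and the groups did not overlap. Without that library the differences were 0.84 and 0.87 (adjusted p = 0.000883 and 0.0206). Serpina3h, a paralog, had 7.35 to 16.5 CPM in mSOD1 medium (median 10.8) against 4.25 to 10.1 CPM in NTg medium (median 5.07) (0.85 ± 0.24, adjusted p = 0.043, up to 0.174 when 1 library was left out), and reads shared among the paralogs cannot be assigned. Socs2 and Socs3 brake cytokine receptors. Socs2 had 78.8 to 101 CPM in mSOD1 medium (median 84.6) against 60.8 to 81 CPM in NTg medium (median 65.5) (0.35 ± 0.069, adjusted p = 0.00464). Socs3 had 164 to 206 CPM in mSOD1 medium (median 179.9) against 129.9 to 183 CPM in NTg medium (median 161) (0.24 ± 0.07, adjusted p = 0.0552, 2.34e-08 with the block). Bcl3, a nuclear cofactor of NF-kB, stood at 0.32 ± 0.12, adjusted p = 0.135 (0.0077 with the block).

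The promoters of Reg3b and Socs3 are shown because each holds a STAT site, spelt TTCNNNGAA, which reads the same on both strands. They span 250 bases before to 50 bases after the transcription start that the RefSeq table uses (build GRCm38.p6), at chr6:78370635-78370934, plus strand, and chr11:117969317-117969616, minus strand, and capitals mark the match. The start used for Socs3 lies inside the gene's annotated span.
Reg3b: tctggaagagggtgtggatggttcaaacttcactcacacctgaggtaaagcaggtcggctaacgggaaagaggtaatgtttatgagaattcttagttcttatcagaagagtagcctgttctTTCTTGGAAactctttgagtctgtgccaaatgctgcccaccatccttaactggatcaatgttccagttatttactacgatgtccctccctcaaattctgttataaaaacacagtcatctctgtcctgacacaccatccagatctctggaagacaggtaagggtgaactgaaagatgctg
Socs3: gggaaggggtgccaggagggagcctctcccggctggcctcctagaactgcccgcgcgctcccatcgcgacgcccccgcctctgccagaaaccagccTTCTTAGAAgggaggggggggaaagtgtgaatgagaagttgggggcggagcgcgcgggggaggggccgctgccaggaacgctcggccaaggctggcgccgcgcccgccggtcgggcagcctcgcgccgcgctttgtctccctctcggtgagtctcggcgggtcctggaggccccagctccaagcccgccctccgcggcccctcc
The motif was found in 8.3% of 32851 promoters of this length. Counting a gene if any of its promoters held it, here and for the motifs below, it was found for 8.41% of the 11737 tested genes with a promoter. Promoters of the receptor list held it in 0 of 6 genes and those of the STAT3 target list in 5 of 15 genes with a promoter in the table, among them 1 of the 2 that had risen.

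A few receptor chains of other cytokines were among the rises. In this list of 20 genes 3 rose and 0 fell (5 and 0 with the block). Csf2rb2 (12984), a receptor chain of IL-3, had 3.69 to 5.46 CPM in mSOD1 medium (median 4.44) against 1.83 to 2.89 CPM in NTg medium (median 2.06), with no overlap between the media (0.98 ± 0.20, adjusted p = 0.00464). Il4ra (16190), the chain that binds IL-4 and takes part in the IL-13 receptor, had 29.2 to 49.2 CPM in mSOD1 medium (median 32.6) against 17.4 to 30.6 CPM in NTg medium (median 22.6) (0.57 ± 0.12, adjusted p = 0.00706), and mSOD1 experiment 1 was again the highest library. Its partner Il13ra1 had 11 to 17.3 CPM in mSOD1 medium (median 12.6) against 7.4 to 12.2 CPM in NTg medium (median 9.25) (0.46 ± 0.14, adjusted p = 0.0682, 4.12e-05 with the block). The IL-17 receptor chain Il17ra had 14 to 22.2 CPM in mSOD1 medium (median 15.6) against 10.2 to 15.9 CPM in NTg medium (median 12) (0.41 ± 0.11, adjusted p = 0.0352). The call of Il17ra was lost without mSOD1 experiment 1 (0.31, adjusted p = 0.155) and without mSOD1 experiment 3 (0.41, 0.0843).

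The transcription factors STAT2 and IRF9 are parts of ISGF3, a complex through which interferons act. In the IRF and ISGF3 list 1 of 11 genes rose and 0 fell (3 and 1 with the block). There 6 estimates were above 0 and 5 below, with a median log2 difference of 0.026. Irf9 (16391) had 21.8 to 28.4 CPM in mSOD1 medium (median 23.6) against 16.5 to 20.6 CPM in NTg medium (median 19.1), without overlap (0.35 ± 0.073, adjusted p = 0.00706). Stat2 had 28.5 to 41.7 CPM in mSOD1 medium (median 33.3) against 26.9 to 31.4 CPM in NTg medium (median 29.1) (0.21 ± 0.087, adjusted p = 0.158, 0.000623 with the block). Among interferon effectors 2 of 38 genes tested rose and 0 fell (11 and 0 with the block), with 29 estimates above 0 and a median log2 difference of 0.18. The 2 that rose were Ifi202b and Ifi27l2a. Ifi202b (26388), a DNA-binding protein with close paralogs, had 3.79 to 8.5 CPM in mSOD1 medium (median 4.79) against 1.14 to 1.92 CPM in NTg medium (median 1.39) (1.85 ± 0.29, adjusted p = 0.000234). Ifi27l2a (76933), a mitochondrial membrane protein, had 21.6 to 31.2 CPM in mSOD1 medium (median 22.8) against 11.8 to 13.7 CPM in NTg medium (median 13.2) (0.89 ± 0.089, adjusted p = 2.56e-08). Ifi27l1 overlaps Ifi27l2a in the annotation and had nearly the same values, 21.5 to 31 CPM against 11.4 to 13.6 CPM, so both may count the same reads. The interferon-stimulated response element was found in 3.44% of 32851 promoters. By gene, it was found for 17 of 29 interferon effectors with a promoter, but not for the 1 called gene among the 29. Receptor transporter Rtp4, at 1.44 to 2.96 CPM in mSOD1 medium and 0.386 to 1.5 CPM in NTg medium, had the estimate 1.06 ± 0.39 and passed with the block only (0.119 and 0.000707).

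Usp18, a protease that restrains interferon signalling, had 2.86 to 4.01 CPM in mSOD1 medium (median 3.19) against 2.58 to 4.06 CPM in NTg medium (median 3.37). The chemokine Ccl2 had 5.14 to 9.38 CPM in mSOD1 medium (median 7.05) against 5.33 to 7.17 CPM in NTg medium (median 6.76). The groups overlapped in both genes, and neither passed with or without the block (-0.0036 ± 0.23, adjusted p = 0.996 and 0.12 ± 0.33, adjusted p = 0.887). The feedback regulators of NF-kB gave 0 of 14 in either direction (2 rises and 1 fall with the block). Within them Tnfaip3, which ends NF-kB signalling, had 19.8 to 23.4 CPM in mSOD1 medium (median 22.9) against 13.2 to 18.3 CPM in NTg medium (median 17.7) with no overlap, and did not pass without the block (0.39 ± 0.18, adjusted p = 0.232, 2.8e-06 with it). Vcam1, an adhesion molecule, had 93.1 to 111 CPM in mSOD1 medium (median 100.3) against 77 to 92.5 CPM in NTg medium (median 88.5), also without overlap (0.24 ± 0.093, adjusted p = 0.143, 3.71e-05 with the block). B2m, the light chain of MHC class I, had 52.9 to 65.9 CPM in mSOD1 medium (median 61) against 47.8 to 57 CPM in NTg medium (median 55.3) (0.19 ± 0.14, adjusted p = 0.502, 9.49e-05 with the block), and of 14 MHC class I genes 0 passed without the block and 1 with it. By edgeR's unadjusted p below 0.05, 2 of the NF-kB list were higher and 0 lower, while 0 of the MHC list did either. Over all genes tested, 1721 of 15207 were higher and 1221 lower by this measure. DESeq2 called 0 of both lists, beside 715 of 12845 genes.

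**Figure D2:**
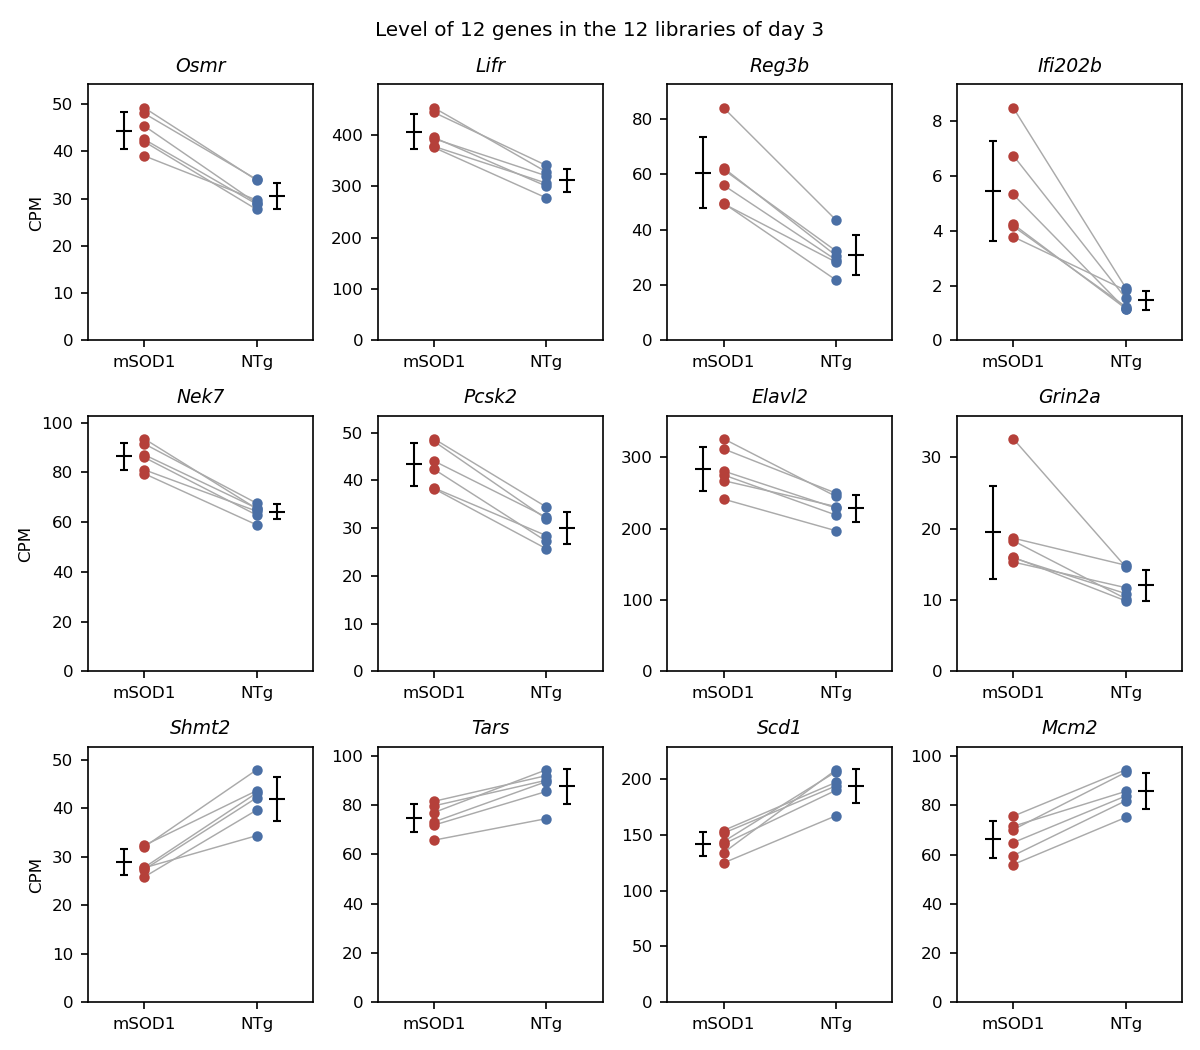
Level in CPM (vertical axes, from 0) of 12 genes in the 6 mSOD1 libraries (red, left) and the 6 NTg libraries (blue, right) of day 3, with grey lines joining libraries of the same experiment and black marks for the mean ± SD. Osmr, Lifr, Reg3b, Ifi202b, Nek7, Pcsk2 and Grin2a are higher in every mSOD1 library than in any NTg library, Shmt2 and Scd1 are lower in every one, and Elavl2, Tars and Mcm2 overlap.

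The other genes that rose with the smallest p have varied functions. Fst (14313), the secreted activin antagonist follistatin, had 57.4 to 75.4 CPM in mSOD1 medium (median 60.4) against 34.9 to 47.3 CPM in NTg medium (median 40.3) (0.65 ± 0.083, adjusted p = 5.3e-06). Nek7 (59125), a kinase of the mitotic spindle that is also needed for the NLRP3 inflammasome, had 79.5 to 93.5 CPM in mSOD1 medium (median 86.6) against 58.9 to 67.6 CPM in NTg medium (median 64.9) (0.43 ± 0.055, adjusted p = 5.3e-06). Pcsk2 (18549), a convertase that cuts neuropeptide precursors, had 38.3 to 48.7 CPM in mSOD1 medium (median 43.2) against 25.7 to 34.4 CPM in NTg medium (median 30.2) (0.52 ± 0.08, adjusted p = 0.000227). All libraries of mSOD1 medium were above those of NTg medium for each of them. Tfrc (22042), the transferrin receptor for iron uptake, had 338 to 419 CPM in mSOD1 medium (median 349.8) against 268 to 311 CPM in NTg medium (median 286) (0.32 ± 0.053, adjusted p = 0.000545). Rdh10 (98711), which oxidises retinol on the way to retinoic acid, had 21.8 to 25.3 CPM in mSOD1 medium (median 24.1) against 15.6 to 20.1 CPM in NTg medium (median 17.1) (0.46 ± 0.076, adjusted p = 0.000603). Gcnt2, a glycosyltransferase, had 26.5 to 35.5 CPM in mSOD1 medium (median 28.5) against 18.4 to 24.7 CPM in NTg medium (median 20.8) (0.48 ± 0.083, adjusted p = 0.00136). These 3 genes did not overlap either.

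Mfap3l, Atrnl1 and Anks1b also separated the media completely. Mfap3l, a membrane protein, had 177 to 199 CPM in mSOD1 medium (median 186) against 139.8 to 163 CPM in NTg medium (median 154) (0.28 ± 0.05, adjusted p = 0.00146). Atrnl1, related to attractin, had 126 to 158 CPM in mSOD1 medium (median 133) against 104 to 122 CPM in NTg medium (median 109) (0.28 ± 0.051, adjusted p = 0.00255). Anks1b, a postsynaptic adaptor, had 144 to 194 CPM in mSOD1 medium (median 153) against 128 to 137 CPM in NTg medium (median 131) (0.26 ± 0.048, adjusted p = 0.0028). In Atrnl1 and Anks1b mSOD1 experiment 3 was the highest library, and without it the differences were 0.23 and 0.19 (adjusted p = 0.0155 and 0.0114). The transcript 9530059O14Rik, for which no function is named here, had the second largest estimate of the genes that rose (1.17 ± 0.34, adjusted p = 0.0471). It rested on mSOD1 experiment 3, which held 8.54 CPM against 1.87 to 3.29 CPM in the other mSOD1 libraries, and without that library the estimate was 0.67 (adjusted p = 0.323). In the lists of TGF-beta and MAP kinase signalling 1 gene each rose, the BMP receptor Acvr1 (0.27 ± 0.059, 0.0112) among 33 genes and the feedback inhibitor Spry2 (0.34 ± 0.08, 0.0165, up to 0.0718 when 1 library was left out) among 13.

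Receptors for trophic factors are the route by which the supplements of the medium act. In this list of 20 genes 4 rose, 3 of them for GDNF and its relatives. Gfra1 (14585), the chain that binds GDNF, had 159.7 to 222 CPM in mSOD1 medium (median 194) against 108 to 166 CPM in NTg medium (median 139.8) (0.47 ± 0.093, adjusted p = 0.00487). Gfra2, the chain for neurturin, had 13.3 to 17.9 CPM in mSOD1 medium (median 14.4) against 7.9 to 11.1 CPM in NTg medium (median 9.65) (0.62 ± 0.11, adjusted p = 0.00146). Ret, the kinase that both use, had 203 to 276 CPM in mSOD1 medium (median 242) against 156 to 222 CPM in NTg medium (median 193) (0.31 ± 0.077, adjusted p = 0.0228). Gfra2 did not overlap between the media, while Gfra1 and Ret did. Met, the receptor for hepatocyte growth factor, stood at 0.32 ± 0.081, adjusted p = 0.0289. With 1 library left out the adjusted p of Ret reached 0.0896 and that of Met 0.108. Ntrk3, the receptor for NT-3, had 32.4 to 52.8 CPM in mSOD1 medium (median 35.2) against 25.5 to 34.9 CPM in NTg medium (median 27.6) and passed with the block only (0.37 ± 0.11, adjusted p = 0.0513, 0.000199 with it). The whole list gave 8 rises and 2 falls with the block.

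Genes that define motor neurons and their transmitter included few calls, all of them rises. Of 29 transcription factors of motor neurons 3 rose and 0 fell, against 8 and 1 with the block. They were Ebf3 (0.30 ± 0.077, 0.0281), Onecut2 (0.40 ± 0.11, 0.0402) and Foxp1 (0.26 ± 0.072, 0.0406), which take part in motor neuron differentiation or in the choice of motor columns. Without mSOD1 experiment 1 or 3, 0 of the 29 passed. Isl1, which sets motor neuron identity, had 46.2 to 63.5 CPM in mSOD1 medium and 41.9 to 65.7 CPM in NTg medium, so that the groups overlapped. The cholinergic list gave 1 rise among 14 genes and 11 with the block, with a median of 0.21. Chrm3, a muscarinic acetylcholine receptor, had 22.1 to 44.9 CPM in mSOD1 medium (median 28.6) against 14.4 to 23.5 CPM in NTg medium (median 20.3) (0.63 ± 0.15, adjusted p = 0.0187), led by mSOD1 experiment 3, and 0.46 without that library (adjusted p = 0.101). Chat stood at 0.27 ± 0.10, 0.135 (3.12e-08 with the block), and the acetylcholine transporter gene Slc18a3 lies inside it, so that reads may be shared.

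Lists of neuronal adhesion, axonal cytoskeleton, channels, transmitter receptors and synaptic vesicles had median log2 differences above 0 in every experiment, between 0.0736 and 0.524. In these bulk cultures more neurons and more RNA of these genes per neuron cannot be told apart. Neuronal adhesion molecules gave 11 rises in 53 genes and 35 with the block, with 49 of 53 estimates above 0 and a median of 0.22, which was 0.169 to 0.36 in the 6 experiments. Cadm1, which joins synaptic partners, had 261 to 338 CPM in mSOD1 medium (median 299.8) against 219.5 to 259 CPM in NTg medium (median 247) (0.30 ± 0.059, adjusted p = 0.00504). Negr1, an adhesion molecule of neurons, had 75.6 to 111 CPM in mSOD1 medium (median 79.1) against 52.8 to 71.8 CPM in NTg medium (median 63.3) (0.46 ± 0.097, adjusted p = 0.00907). Cntn1, a contactin, had 116 to 158 CPM in mSOD1 medium (median 131) against 91.8 to 120.1 CPM in NTg medium (median 108) (0.35 ± 0.081, adjusted p = 0.0159). Cadm1 and Negr1 did not overlap and Cntn1 did. Cdh13, a cadherin held by a lipid anchor, stood at 0.41 ± 0.095, 0.0171 and the protocadherin Pcdh17 at 0.50 ± 0.12, 0.021. Without mSOD1 experiment 3, 1 member of the adhesion list passed, and without mSOD1 experiment 1, 3 passed.

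Some axon guidance receptors were among the rises. Of 28 receptors 7 rose (16 rises and 2 falls with the block), and of 28 ligands 0 (5 and 8 with the block). The medians were 0.14 and 0.03, and the difference between the lists was not tested. For the ligands, edgeR's unadjusted p was below 0.05 in 5 higher and 3 lower genes, beside 1721 and 1221 of all 15207. DESeq2 called 3 of the ligands, beside 715 of 12845 genes. Ephb1, an ephrin receptor, had 64.2 to 92.5 CPM in mSOD1 medium (median 69.3) against 47.4 to 67 CPM in NTg medium (median 52.2) (0.47 ± 0.088, adjusted p = 0.00355), with an overlap at NTg experiment 1, which was the highest NTg library. The netrin receptor Unc5c (0.46 ± 0.12, 0.0289) and the semaphorin receptors Plxna4 (0.36 ± 0.093, 0.029), Nrp1 (0.24 ± 0.063, 0.0334) and Plxnc1 (0.22 ± 0.059, 0.0368) followed. Without mSOD1 experiment 1 or 3, 1 gene of this list passed, and it was Ephb1 (adjusted p = 0.0206 and 0.0208).

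Nearly all genes of the axonal cytoskeleton list had estimates above 0. Of 31 genes 30 had estimates above 0, 2 rose and 27 rose with the block, and the median log2 difference lay between 0.138 and 0.211 in every experiment. Stmn2 (20257), which regulates microtubules in growing axons, had 877 to 1199 CPM in mSOD1 medium (median 986) against 677 to 982 CPM in NTg medium (median 817) (0.32 ± 0.078, adjusted p = 0.0231). Ank3, which builds the axon initial segment, had 368 to 503 CPM in mSOD1 medium (median 437) against 275 to 395 CPM in NTg medium (median 341) (0.35 ± 0.10, adjusted p = 0.0493). Mapt, which encodes tau, had 911 to 1276 CPM in mSOD1 medium (median 1064) against 742 to 1078 CPM in NTg medium (median 894) (0.26 ± 0.081, adjusted p = 0.0674, 4.93e-11 with the block). The motors gave 1 rise in 26 genes, the kinesin Kif5c, with 705 to 902 CPM in mSOD1 medium (median 775) against 587 to 764 CPM in NTg medium (median 663) (0.24 ± 0.066, adjusted p = 0.0415). In all 4 of these genes the groups overlapped, each gene was higher in 6 of 6 pairs, and the 3 calls without the block were lost without mSOD1 experiment 1 (adjusted p = 0.0951, 0.159 and 0.159).

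Neuronal RNA-binding proteins gave 2 rises in 23 genes, Elavl2 and Elavl4, both of the Hu family that stabilises neuronal transcripts. Elavl2 had 242 to 326 CPM in mSOD1 medium (median 278) against 197 to 249.9 CPM in NTg medium (median 230.0) (0.31 ± 0.07, adjusted p = 0.0119). Elavl4 had 189 to 259.7 CPM in mSOD1 medium (median 219.9) against 157 to 207 CPM in NTg medium (median 184) (0.28 ± 0.069, adjusted p = 0.0233). Both calls were lost without mSOD1 experiment 3 (adjusted p = 0.0623 and 0.0845), and 0 to 9 genes of the list passed when single libraries were left out. With the block 13 rose and 3 fell. Ptbp1, the splicing repressor that neurons switch off, was among the falls with the block, with 128 to 173 CPM in mSOD1 medium (median 164) against 162 to 201 CPM in NTg medium (median 190.3) (-0.25 ± 0.078, adjusted p = 0.0735, 8.83e-09 with it).

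Ion channels and receptors followed the same direction. Sodium and calcium channel genes gave 4 rises in 25 and 19 with the block (median 0.20), potassium channels and related subunits 5 in 42 and 20 with the block (median 0.24). The 4 were Cacna2d1 (0.29 ± 0.077, 0.0352) and Cacna2d3 (0.34 ± 0.091, 0.0355), auxiliary subunits of calcium channels, and Scn3b (0.22 ± 0.063, 0.0415) and Scn9a (0.27 ± 0.078, 0.0444) of sodium channels. The 5 included Kcnt2 (0.51 ± 0.12, 0.0213), Kcnj6 (0.58 ± 0.15, 0.0291), Kcnab1 (0.30 ± 0.08, 0.033) and the pacemaker channel Hcn4 (0.42 ± 0.12, 0.0481). Without mSOD1 experiment 1, or without mSOD1 experiment 3, 0 members of either list passed.

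Glutamate receptors gave 3 rises in 24, and receptors for GABA and glycine 3 in 20, with 12 each with the block. Grin2a, an NMDA receptor subunit, had 15.3 to 32.6 CPM in mSOD1 medium (median 17.1) against 9.88 to 14.9 CPM in NTg medium (median 11.3) without overlap (0.69 ± 0.18, adjusted p = 0.0311). Its value of 32.6 CPM in mSOD1 experiment 3 stood far above the 15.3 to 18.7 CPM of the other mSOD1 libraries, and without that library the difference was 0.46 (adjusted p = 0.175). The same library led Grid1 (0.46 ± 0.12, 0.0353), Grm7 (0.50 ± 0.14, 0.0467) and Gabrg3 (0.65 ± 0.17, 0.0301), whose differences without it were 0.28, 0.28 and 0.38 (adjusted p = 0.203, 0.253 and 0.208). Gabbr2, a subunit of the GABA-B receptor, stood at 0.42 ± 0.11, 0.0301.

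Synaptic vesicle genes gave 6 rises in 46 and 36 with the block (median 0.20, 0.167 to 0.208 in the 6 experiments). Without mSOD1 experiment 1 or 3, 0 of them passed, and without NTg experiment 1, 17 passed. The 6 included the calcium sensor Syt2 (0.40 ± 0.10, 0.0297), the priming factor Unc13c (0.44 ± 0.12, 0.0321), the SNARE protein Vamp1 (0.30 ± 0.079, 0.033), the synapsin Syn2 (0.24 ± 0.063, 0.034, which overlaps Timp4) and the endocytic protein Amph (0.28 ± 0.075, 0.0355). Of these genes Vamp1 alone did not overlap between the media. Among 26 genes of axon injury 3 rose, Lifr, Gfra1 and the transcription factor Klf7 (0.42 ± 0.096, 0.0152). Atf3, the injury factor, had 20.4 to 24.4 CPM in mSOD1 medium (median 22.6) against 15.3 to 20.8 CPM in NTg medium (median 17.5) (0.35 ± 0.11, adjusted p = 0.067, 3.96e-05 with the block). Of 20 immediate early genes 0 passed (2 rises and 1 fall with the block), and of 19 Hox genes 0 (2 and 9 with the block, median -0.15). By edgeR's unadjusted p below 0.05, 2 immediate early genes were higher and 0 lower, and 1 Hox gene was higher and 8 lower. Among all 15207 genes, 1721 were higher and 1221 lower at that p. DESeq2 called 0 immediate early genes and 1 Hox gene, beside 715 of 12845 genes. Hoxc5 had 4.77 to 7.7 CPM in mSOD1 medium (median 5.43) against 5.46 to 10.5 CPM in NTg medium (median 8.58) (-0.52 ± 0.17, adjusted p = 0.0777, 8.43e-05 with the block).

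**Figure D3:**
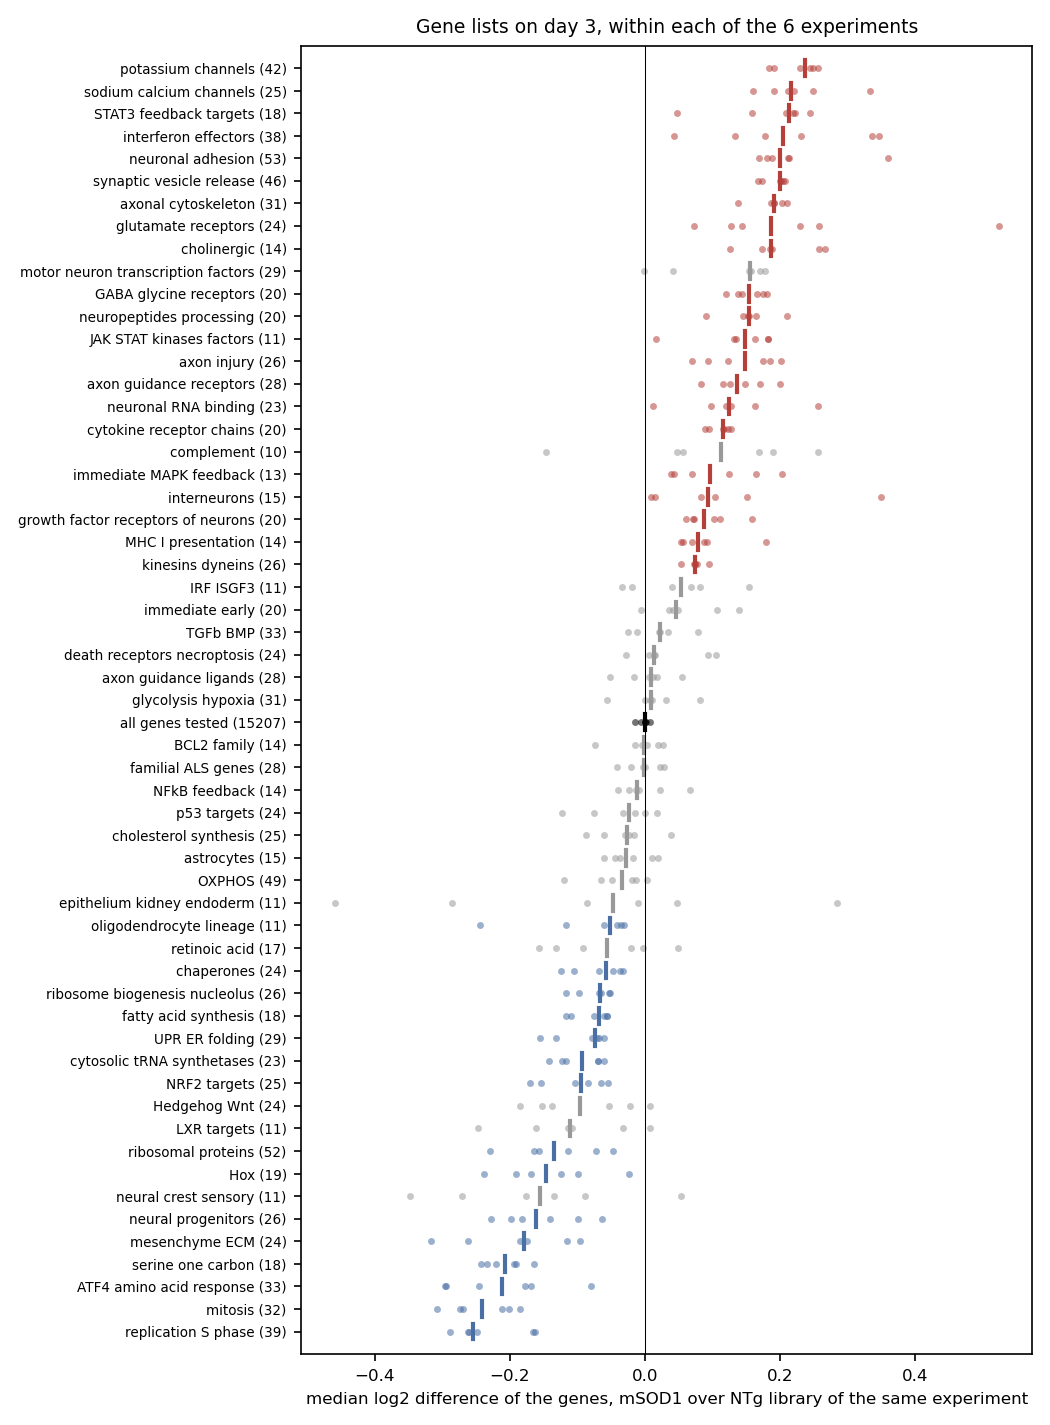
Median log2 difference between the mSOD1 and the NTg library of the same experiment (horizontal axis) for gene lists of at least 10 tested genes and for all genes, 1 point per experiment and a bar at the median of the 6, with the number of genes tested in brackets. Lists above 0 in all 6 experiments are red, those below 0 in all 6 blue, the others grey and all genes black. Neuronal lists, STAT3 feedback targets and interferon effectors stand at the top, and proliferation, mesenchyme and amino acid lists at the bottom.

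Genes that rose were long. Their annotated span in GRCm38 had a median of 120 kb, against 15.8 kb for genes that fell and 24 kb for all genes tested (spans were found for 99.6% of genes). When all genes were divided into 4 classes of equal size by span, the share that rose was 6.24% in the longest class (over 60.4 kb) and 0.66% in the shortest (up to 9.54 kb), and the share that fell was 0.185% and 0.819%. The median log2 difference of the longest class exceeded that of the shortest in every experiment, by 0.12, 0.095, 0.199, 0.0656, 0.0418 and 0.107 in experiments 1 to 6. mSOD1 experiment 3 carried the largest of these gaps. Without this library 67 genes rose, with a median span of 82.6 kb, and the share that rose was 0.978% in the longest class and 0.211% in the shortest. Without all 6 libraries of experiment 3, 28 genes rose, with a median span of 52.7 kb, and the shares were 0.37% and 0.132%. The 2271 rises with the block had a median span of 64.2 kb, with shares of 31.3% and 7.05%. The median was 0.0628 in the longest class and -0.0487 in the shortest on day 3, and -0.029 and 0.020 on day 1. The part of neuronal genes, which tend to be long, in this pattern was not tested.

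**Figure D4:**
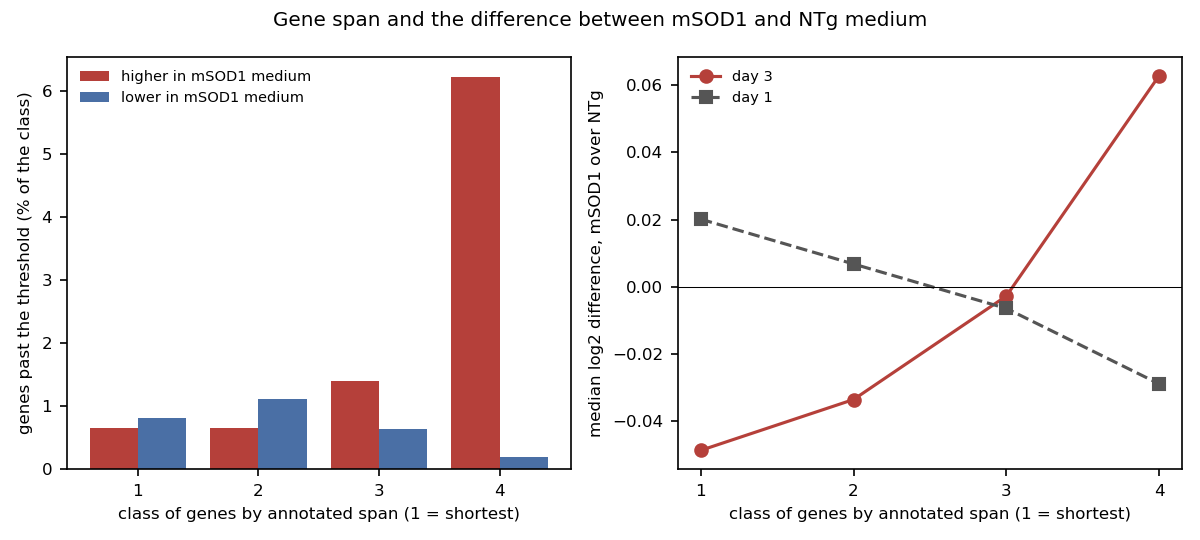
Left, share of genes past the threshold (vertical axis, percent of the class) in 4 classes of genes by annotated span (horizontal axis, 1 the shortest), higher in mSOD1 medium in red and lower in blue. Right, median log2 difference between mSOD1 and NTg medium by class, on day 3 (circles) and day 1 (squares), which rises with span on day 3 from -0.0487 to 0.0628.

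Genes of amino acid supply were among the falls. ATF4 is the transcription factor that cells induce when amino acids are scarce or the endoplasmic reticulum is stressed, and of 33 of its targets 9 fell and 0 rose, against 19 and 2 with the block. The median was -0.24, with -0.296 to -0.0792 in the 6 experiments. Without 1 library 4 to 15 of them passed. In the overlapping list of serine and one-carbon metabolism all 18 estimates were below 0, 3 fell and 12 fell with the block. Shmt2 (108037), which splits serine in mitochondria, had 25.9 to 32.4 CPM in mSOD1 medium (median 27.8) against 34.4 to 48 CPM in NTg medium (median 42.7) (-0.53 ± 0.097, adjusted p = 0.00286). Mthfd2 (17768), the next mitochondrial step of the folate cycle, had 26.9 to 34.4 CPM in mSOD1 medium (median 28.6) against 34.8 to 41.2 CPM in NTg medium (median 37.7) (-0.34 ± 0.064, adjusted p = 0.00309). Both were lower in every mSOD1 library than in any NTg library. Psat1, in the synthesis of serine, had 127 to 179.8 CPM in mSOD1 medium (median 174) against 158 to 236 CPM in NTg medium (median 217) with overlap (-0.36 ± 0.086, adjusted p = 0.0191), and its call was lost without mSOD1 experiment 1 (adjusted p = 0.0859).

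Among other members, Gpt2, a mitochondrial alanine transaminase, had 62.9 to 76.7 CPM in mSOD1 medium (median 68.1) against 76.9 to 95.1 CPM in NTg medium (median 84.9) (-0.31 ± 0.063, adjusted p = 0.006). Slc7a5, a carrier of large neutral amino acids, had 66.6 to 78.4 CPM in mSOD1 medium (median 71.7) against 75.4 to 93.3 CPM in NTg medium (median 90.2) (-0.30 ± 0.064, adjusted p = 0.00856). Slc7a3, a carrier of arginine and lysine that overlaps Snx12 in the annotation, had 3.56 to 5.29 CPM in mSOD1 medium (median 3.78) against 7 to 9.14 CPM in NTg medium (median 8.13) (-0.96 ± 0.23, adjusted p = 0.0189). Gpt2 and Slc7a3 did not overlap between the media. Idh2, the mitochondrial isocitrate dehydrogenase, outside these lists, had 66.7 to 88.4 CPM in mSOD1 medium (median 76.7) against 86.9 to 102 CPM in NTg medium (median 97.3) (-0.29 ± 0.062, adjusted p = 0.00907).

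Cytosolic tRNA synthetases, which charge tRNAs with amino acids, gave 4 falls in 23 genes and 13 with the block, with 21 estimates below 0. They were Mars for methionine (-0.21 ± 0.049, 0.0161), Tars for threonine (-0.22 ± 0.058, 0.029), Aars for alanine (-0.16 ± 0.043, 0.0344) and Cars for cysteine (-0.22 ± 0.064, 0.047). Mars, which overlaps Ddit3, and Aars, which overlaps Ddx19b, did not overlap between the media in level. The adjusted p of the 4 genes reached 0.0748, 0.116, 0.12 and 0.161 when 1 library was left out.

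The promoters of Tars and Aars are shown because both hold the C/EBP-ATF response element through which ATF4 acts, spelt TGATGNAA on one strand and TTNCATCA on the other. They lie at chr15:11399609-11399908, minus strand, and chr8:111033592-111033891, plus strand, in GRCm38.p6 (RefSeq), with matches in capitals. The start used for Aars lies inside the gene's annotated span.
Tars: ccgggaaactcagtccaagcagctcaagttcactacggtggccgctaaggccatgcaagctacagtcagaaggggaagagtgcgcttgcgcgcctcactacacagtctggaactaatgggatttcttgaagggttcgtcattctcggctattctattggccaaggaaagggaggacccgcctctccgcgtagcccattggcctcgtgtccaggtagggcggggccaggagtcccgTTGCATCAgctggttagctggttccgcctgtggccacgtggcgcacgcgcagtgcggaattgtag
Aars: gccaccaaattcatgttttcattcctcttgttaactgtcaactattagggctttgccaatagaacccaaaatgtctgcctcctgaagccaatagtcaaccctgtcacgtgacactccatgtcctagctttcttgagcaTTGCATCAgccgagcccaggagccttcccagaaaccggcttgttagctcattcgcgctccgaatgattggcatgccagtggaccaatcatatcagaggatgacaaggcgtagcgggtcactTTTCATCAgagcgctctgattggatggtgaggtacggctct
The element was found in 3.97% of 32851 promoters and, by gene, for 2.84% of tested genes with a promoter. It was found for 5 of 16 tRNA synthetase genes, among them 2 of the 3 that had fallen. Of ATF4 targets 9 of 27 genes held it, among them 2 of the 7 that had fallen.

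The endoplasmic reticulum list gave 1 fall in 29, Herpud1, which takes part in the removal of misfolded proteins (-0.26 ± 0.06, 0.0152), and 16 falls and 3 rises with the block. Without mSOD1 experiment 3, 0 genes of the list passed (Herpud1 adjusted p = 0.0683), and without NTg experiment 1, 9 passed. DESeq2 called 7 of the list, beside 715 of 12845 genes. Sec61a1, the pore through which proteins enter the reticulum, had 176 to 204 CPM in mSOD1 medium (median 201) against 212 to 226 CPM in NTg medium (median 223), without overlap (-0.17 ± 0.038, adjusted p = 0.0142). It was lowest in mSOD1 experiment 3, at 176 CPM against 197 to 204 CPM in the other mSOD1 libraries, and stood at -0.14 without it (adjusted p = 0.0787). Cytosolic and mitochondrial chaperones gave 0 of 24 (10 falls and 1 rise with the block). NRF2 targets, the defence against oxidants, gave 0 of 25, and 11 falls with the block. Oxidative phosphorylation gave 0 of 49, with 4 falls with the block. All 52 ribosomal protein genes had estimates below 0 (median -0.12), of which 0 passed and 35 fell with the block. With edgeR's unadjusted p below 0.05, 4 chaperones, 2 NRF2 targets, 0 genes of oxidative phosphorylation and 9 ribosomal protein genes were lower. In these lists 0 genes were higher, while of all 15207 genes 1221 were lower and 1721 higher. DESeq2 called 1 ribosomal protein gene and 0 of the other 3 lists, beside 715 of 12845 genes.

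Some genes regulated by SREBP, the factor that controls sterol and fatty acid synthesis, were among the falls. Of 18 genes of fatty acid synthesis 4 fell, against 8 falls and 1 rise with the block. Scd1 (20249), which desaturates fatty acids, had 125 to 154 CPM in mSOD1 medium (median 143) against 167 to 208 CPM in NTg medium (median 195) (-0.45 ± 0.071, adjusted p = 0.000312). Srebf1, the SREBP gene for fatty acid synthesis, had 153 to 188 CPM in mSOD1 medium (median 168) against 183 to 223 CPM in NTg medium (median 201) (-0.26 ± 0.07, adjusted p = 0.0344). Fads1, another desaturase, had 217 to 226 CPM in mSOD1 medium (median 220.4) against 233 to 252 CPM in NTg medium (median 243) (-0.13 ± 0.031, adjusted p = 0.0191). The elongase Elovl5 had 121 to 131 CPM in mSOD1 medium (median 123) against 131 to 144 CPM in NTg medium (median 138) (-0.14 ± 0.042, adjusted p = 0.0489). Scd1, Fads1 and Elovl5 did not overlap between the media. Of 25 genes of cholesterol synthesis Insig1, which holds SREBP back, fell (-0.19 ± 0.046, 0.0191) and Hsd17b7 rose (0.21 ± 0.062, 0.0471), and of the 4 falls of fatty acid synthesis Scd1 alone passed in each fit without 1 library. The sterol regulatory element, spelt TCACNCCAC on one strand and GTGGNGTGA on the other, was found in 1.24% of 32851 promoters. By gene, it was found for 0 of 15 genes of the fatty acid list and 0 of 16 of the cholesterol list. Lpl, a lipase outside the 2 lists, had 4.23 to 6.37 CPM in mSOD1 medium (median 4.68) against 6.95 to 10.5 CPM in NTg medium (median 7.79) (-0.66 ± 0.17, adjusted p = 0.0289, up to 0.119 when 1 library was left out).

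Genes of dividing cells had lower levels in mSOD1 medium, in most cases past the threshold with the block only. The mitosis list had all 32 estimates below 0, 0 calls without the block and 32 of 32 with it, and a median of -0.24, which was -0.307 to -0.185 in the 6 experiments. Of the 32, 26 were lower by edgeR's unadjusted p below 0.05, beside 1221 of all 15207 genes. DESeq2 called 3 of them, beside 715 of 12845 genes. Cdca8, part of the complex that corrects chromosome attachment, had 30.2 to 41.5 CPM in mSOD1 medium (median 36.7) against 39 to 50.05 CPM in NTg medium (median 45.8) (-0.33 ± 0.10, adjusted p = 0.0645, 2.8e-07 with the block). Mki67, the usual marker of dividing cells, had 208 to 297 CPM in mSOD1 medium (median 237) against 226 to 342 CPM in NTg medium (median 272) (-0.21 ± 0.11, adjusted p = 0.281, 5.04e-08 with the block). Of 39 replication genes 4 fell and 31 fell with the block. They were the helicase subunits Mcm2 and Mcm5, the polymerase Pold1 and the ligase Lig1. Mcm2 had 55.9 to 75.6 CPM in mSOD1 medium (median 67.5) against 75.1 to 94.4 CPM in NTg medium (median 84.7) (-0.37 ± 0.075, adjusted p = 0.00523). Mcm5 had 39.7 to 52.4 CPM in mSOD1 medium (median 46.8) against 53.5 to 67.3 CPM in NTg medium (median 59.4) (-0.37 ± 0.089, adjusted p = 0.0191). Pold1 had 16.1 to 21.9 CPM in mSOD1 medium (median 18.5) against 22.2 to 28.8 CPM in NTg medium (median 25.6) (-0.44 ± 0.11, adjusted p = 0.0211). Lig1 had 46.2 to 52.8 CPM in mSOD1 medium (median 47.2) against 50.1 to 60.3 CPM in NTg medium (median 57.8) (-0.23 ± 0.058, adjusted p = 0.0231). Mcm5 and Pold1 did not overlap between the media, and without mSOD1 experiment 1 or 3 Mcm2 alone of the list was called (adjusted p = 0.031 and 0.0292).

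The promoter of Mcm5 is shown for the E2F site, spelt TTTNGCGC on one strand and GCGCNAAA on the other, by which cells switch on replication genes. It lies at chr8:75109259-75109558, plus strand, in GRCm38.p6 (RefSeq), and the capitals mark 2 matches that overlap, 1 on each strand.
Mcm5: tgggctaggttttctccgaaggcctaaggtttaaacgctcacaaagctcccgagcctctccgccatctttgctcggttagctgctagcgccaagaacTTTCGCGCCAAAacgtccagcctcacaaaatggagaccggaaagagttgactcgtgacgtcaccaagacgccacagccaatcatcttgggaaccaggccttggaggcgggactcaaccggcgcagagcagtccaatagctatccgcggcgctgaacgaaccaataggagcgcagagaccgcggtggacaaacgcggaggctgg
The site was found in 1.38% of 32851 promoters. By gene, it was found for 2.795% of tested genes with a promoter and for 11 of 33 replication genes. Among these 11 were 2 of the 4 that had fallen, Mcm5 and Lig1.

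Markers of other cells differed in part between the media. Neural progenitor genes gave 0 of 26 without the block and 12 falls with it, their summed level was 4111 to 5037 CPM in mSOD1 medium and 4479 to 5286 CPM in NTg medium, and 2 of 28 were below 1 CPM in all 12 libraries. Of the 26, 6 were lower by edgeR's unadjusted p below 0.05, beside 1221 of all 15207 genes. DESeq2 called 1 of them, beside 715 of 12845 genes. Sox3, a progenitor factor, had 21.7 to 28.6 CPM in mSOD1 medium (median 26) against 26.7 to 37.5 CPM in NTg medium (median 35.6) (-0.40 ± 0.12, adjusted p = 0.0679, 8.57e-07 with the block). The filament gene Vim had 1781 to 2177 CPM in mSOD1 medium (median 1953) against 2063 to 2308 CPM in NTg medium (median 2220) (-0.15 ± 0.061, adjusted p = 0.149, 3.48e-06 with the block). Of 24 genes of mesenchyme and matrix 3 fell, against 12 falls and 1 rise with the block. Dcn, the proteoglycan decorin, had 5.46 to 14.7 CPM in mSOD1 medium (median 13.1) against 10.9 to 28.1 CPM in NTg medium (median 21.8) (-0.83 ± 0.21, adjusted p = 0.029). The collagen Col1a2 had 46.3 to 74.6 CPM in mSOD1 medium (median 68.6) against 64.5 to 104 CPM in NTg medium (median 97.4) (-0.49 ± 0.13, adjusted p = 0.0305). The microfibril protein Fbn1 had 114 to 147 CPM in mSOD1 medium (median 139.6) against 138 to 185 CPM in NTg medium (median 174) (-0.31 ± 0.082, adjusted p = 0.0355). Each overlapped between the media, was lower in 6 of 6 pairs, and lost its call without mSOD1 experiment 1 (adjusted p = 0.0975, 0.111 and 0.133). Col1a1 stood at -0.25 ± 0.17, 0.448 (5.48e-06 with the block). Mitotic genes summed to 1962 to 2786 CPM in mSOD1 medium and 2337 to 3193 CPM in NTg medium. Astrocyte genes summed to 1627 to 2110 CPM and 1601 to 2168 CPM, and the astrocyte filament gene Gfap stood at 0.0742 to 1.4 CPM and 0.193 to 3.47 CPM. The part of these cells in the falls and in the neuronal rises was not tested.

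Among the other falls, Igfbp4, which binds insulin-like growth factors, had 30.8 to 43.3 CPM in mSOD1 medium (median 35.7) against 43.5 to 56.5 CPM in NTg medium (median 48.3) (-0.42 ± 0.086, adjusted p = 0.00523). Crhbp, which binds corticotropin-releasing hormone, had 8.98 to 12.1 CPM in mSOD1 medium (median 9.68) against 12.2 to 16.4 CPM in NTg medium (median 15.8) (-0.55 ± 0.12, adjusted p = 0.0112). Dlk1, a membrane protein related to Notch ligands, had 45.4 to 56.5 CPM in mSOD1 medium (median 51.2) against 54.7 to 72.1 CPM in NTg medium (median 65.9) (-0.34 ± 0.073, adjusted p = 0.00958). Igfbp4 and Crhbp did not overlap between the media. Smaller falls with groups that did not overlap were those of Aggf1 (-0.19 ± 0.042, 0.0108), Zfp276 (-0.22 ± 0.049, 0.0112, which overlaps Fanca and Vps9d1) and the septin Sept9 (-0.15 ± 0.034, 0.0122).

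Several of the larger falls, among genes that averaged at least 1 on the log2 CPM scale, were of genes at low levels, as was that of Slc7a3 above. Tcfap2b (21419), an AP-2 transcription factor, had 1.47 to 2.89 CPM in mSOD1 medium (median 2.51) against 2.31 to 8.32 CPM in NTg medium (median 5.91) (-1.29 ± 0.25, adjusted p = 0.00439). Dhrs3, which turns retinal back to retinol and overlaps Vps13d, had 1.91 to 4.02 CPM in mSOD1 medium (median 3.19) against 3.1 to 9.46 CPM in NTg medium (median 7.68) (-1.18 ± 0.28, adjusted p = 0.0191). Both overlapped between the media, and both were lower in 6 of 6 pairs. C130026L21Rik had 1.44 to 2.15 CPM in mSOD1 medium (median 1.61) against 2.38 to 4.31 CPM in NTg medium (median 2.74) (-0.87 ± 0.21, adjusted p = 0.0213). Selenbp1, a selenium-binding protein, had 2.6 to 5.14 CPM in mSOD1 medium (median 3.17) against 4.16 to 10.1 CPM in NTg medium (median 5.46) (-0.79 ± 0.20, adjusted p = 0.0289). Synpo2l, an actin-binding protein, had 2.9 to 4.55 CPM in mSOD1 medium (median 4.08) against 5.21 to 8.41 CPM in NTg medium (median 6.33) (-0.71 ± 0.17, adjusted p = 0.0168). The retinoic acid list thus held Rdh10 among the rises and Dhrs3 and the receptor Rara (-0.24 ± 0.062, 0.0321) among the falls, 3 of 17 genes. Without 1 library Dhrs3, C130026L21Rik, Selenbp1, Synpo2l and Rara reached adjusted p-values of 0.0806, 0.103, 0.148, 0.0573 and 0.127.

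Genes of familial ALS and of cell death did not pass without the block. Of 28 ALS genes 0 passed (5 rises and 8 falls with the block, median 0.0048), of 14 BCL2 family genes 0 (3 falls with the block), of 24 death receptor and necroptosis genes 0 (5 and 3 with the block) and of 24 p53 targets 0 (1 and 8 with the block). By edgeR's unadjusted p below 0.05, 4 ALS genes were higher and 6 lower, and 1 BCL2 gene was lower. Of the death receptor genes 2 were higher and 2 lower, and 3 p53 targets were lower. Over all 15207 genes, 1721 were higher and 1221 lower. DESeq2 called 1 ALS gene, 1 BCL2 gene and 0 of the other lists, beside 715 of 12845 genes. Sod1, of which the neurons carry their own copies, had 36.7 to 40.4 CPM in mSOD1 medium (median 39.1) against 36.4 to 55.6 CPM in NTg medium (median 44.8) (-0.21 ± 0.079, adjusted p = 0.129, 0.00551 with the block). The neurofilament Nefh had 65.4 to 107 CPM in mSOD1 medium (median 73.6) against 46.2 to 77.9 CPM in NTg medium (median 58) (0.38 ± 0.12, adjusted p = 0.0766, 2.46e-07 with the block). The kinesin Kif5a, which overlaps Dctn2, had 397 to 568 CPM in mSOD1 medium (median 490.5) against 325 to 477 CPM in NTg medium (median 422) (0.24 ± 0.085, adjusted p = 0.111). The actin regulator Pfn1 had 274 to 330.1 CPM in mSOD1 medium (median 314) against 331 to 364 CPM in NTg medium (median 348) (-0.18 ± 0.063, adjusted p = 0.112, 1.81e-06 with the block). Pfn1 did not overlap between the media. The pore-forming Bak1 stood at -0.24 ± 0.072, 0.0611 (0.000403 with the block) and App at 0.12 ± 0.047, 0.125 (2.7e-05 with the block). Gapdh and Actb, often used as controls, stood at -0.15 ± 0.069, 0.223 and -0.14 ± 0.061, 0.218.

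Which differences changed between day 1 and day 3? The difference on day 3 was set against that on day 1 in the same fit, and 35 of 15207 genes (0.23%) passed, 13 with a higher difference on day 3 (0.0855%) and 22 with a lower one (0.145%). The 13 were Osmr, Csf2rb2, Ly6a, Nek7, Pcsk2, Rdh10, Gfra2, Rhoq, Chst11, Fam55d, Scaper, Iqsec3 and Scn8a. Osmr stood at -0.28 ± 0.07 on day 1 and 0.54 ± 0.065 on day 3 (interaction 0.82 ± 0.096, adjusted p = 2.73e-06), Csf2rb2 at -0.54 ± 0.24 on day 1 and 0.98 ± 0.20 on day 3 (1.52 ± 0.31, 0.0159) and Ly6a, a surface protein of the Ly6 family, at -1.11 ± 0.36 on day 1 and 0.80 ± 0.19 on day 3. Rdh10 stood at -0.23 ± 0.078 on day 1 and 0.46 ± 0.076 on day 3 (0.69 ± 0.11, 0.000629) and Gfra2 at -0.09 ± 0.12 on day 1 and 0.62 ± 0.11 on day 3 (0.71 ± 0.16, 0.0357). Nek7 and Pcsk2 were near 0 on day 1 (0.05 ± 0.058 and 0.05 ± 0.076, interaction adjusted p = 0.0215 and 0.0481).

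The genes with a lower difference on day 3 included 8 interferon effectors, 3 genes of the IRF and ISGF3 list (Irf1, Irf7 and Irf9) and 2 of the NF-kB feedback list, 13 of the 22. On day 1 itself 64 genes (0.421%) had passed, 62 rising (0.408%) and 2 falling (0.0132%). Of 38 interferon effectors 2 rose on day 3 and 23 on day 1, and the interaction passed for 8. Usp18 stood at 2.46 ± 0.21 on day 1 and -0.0036 ± 0.23 on day 3 (-2.46 ± 0.31, 1.09e-05), Oasl2 at 2.33 ± 0.23 on day 1 and 0.62 ± 0.23 on day 3 (-1.71 ± 0.33, 0.0095), and the RNA sensor Ddx58 at 1.11 ± 0.11 on day 1 and 0.08 ± 0.095 on day 3. Irf9 passed on both days, at 1.00 ± 0.073 on day 1 and 0.35 ± 0.073 on day 3 (-0.65 ± 0.10, 0.000629), and Irf1 and Trim25 stood at 0.85 ± 0.13 on day 1 and -0.11 ± 0.12 on day 3 and at 0.92 ± 0.10 on day 1 and 0.26 ± 0.099 on day 3. Ccl2, a chemokine for monocytes, stood at 2.58 ± 0.33 on day 1 and 0.12 ± 0.33 on day 3 (-2.46 ± 0.47, 0.0095). Crhbp (0.42 ± 0.13 on day 1 and -0.55 ± 0.12 on day 3) and Dlk1 (0.16 ± 0.075 on day 1 and -0.34 ± 0.073 on day 3), of other function, were also in this group. The days used different libraries of each medium. With experiment as a block in all 36 libraries 406 genes passed the interaction, and leaving out single libraries of the 4 groups gave 17 to 112, and leaving out a whole experiment gave 8 to 38.

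**Figure D5:**
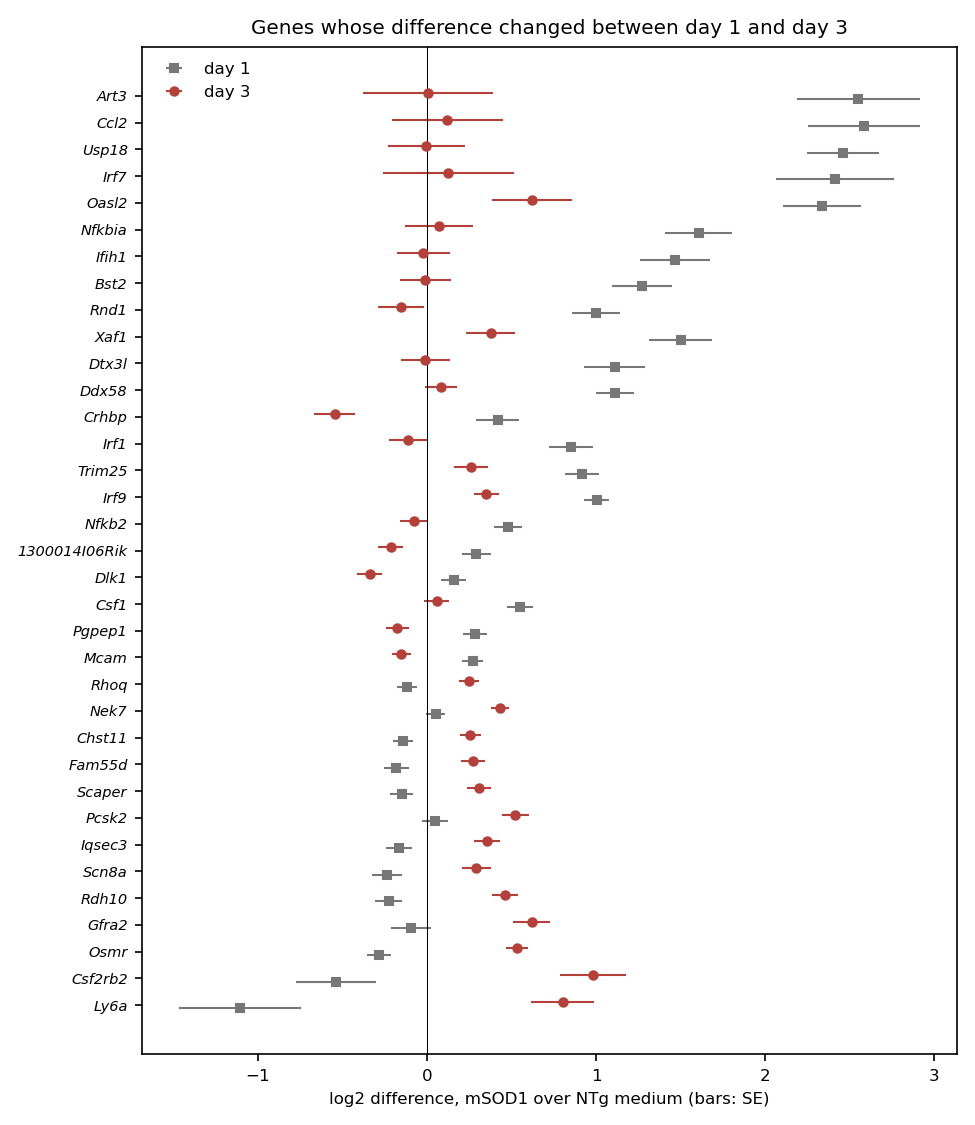
Log2 difference between mSOD1 and NTg medium (horizontal axis, bars are SE) on day 1 (grey squares) and day 3 (red circles) for the 35 genes whose difference changed between the days. Usp18, Ccl2 and Art3 stand above 2 on day 1 and near 0 on day 3, and Osmr, Csf2rb2 and Ly6a stand below 0 on day 1 and above 0 on day 3.

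Was the day 3 difference one between mSOD1 and wtSOD1 medium too? Here 513 genes (3.37%) passed, 377 rising (2.48%) and 136 falling (0.894%), with the same 6 mSOD1 libraries as above set against 6 of wtSOD1 medium. Of the 339 rises against NTg medium 220, and of the 104 falls 48, passed here in the same direction. The shared mSOD1 libraries favour such agreement, also in the genes named next. Osmr had 27.9 to 34.5 CPM (median 31.1) in wtSOD1 medium, so that mSOD1 was higher than it (0.53 ± 0.065, adjusted p = 1.99e-06), and Lifr, Reg3b, Fst and Nek7 were likewise higher in mSOD1 (0.48 ± 0.073, 9.04e-05; 1.31 ± 0.14, 2.35e-07; 0.76 ± 0.083, 1.43e-07; 0.51 ± 0.055, 1.23e-07). Shmt2 and Mthfd2 were lower in mSOD1 than in wtSOD1 medium (-0.50 ± 0.098, adjusted p = 0.00177; -0.40 ± 0.065, 0.0002), as were Slc7a5 (-0.54 ± 0.064, 8.13e-07) and Mcm2 (-0.40 ± 0.075, 0.00127). The ATF4 list gave 15 falls and 1 rise in 33 genes.

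Lipid genes did not follow this order. Scd1 had 125 to 154 CPM in mSOD1 medium, 105 to 142 CPM in wtSOD1 medium and 167 to 208 CPM in NTg medium, and mSOD1 did not pass against wtSOD1 (0.17 ± 0.071, adjusted p = 0.178). Srebf1 was higher in mSOD1 than in wtSOD1 medium (0.30 ± 0.071, adjusted p = 0.00994), as were Scd2 (0.23 ± 0.042, adjusted p = 0.000575) and the sterol exporter Abca1 (0.95 ± 0.094, adjusted p = 4.62e-08), which had 275 to 334 CPM in mSOD1 medium and 148 to 169 CPM (median 158) in wtSOD1 medium. Against NTg medium Scd2 and Abca1 stood at -0.12 ± 0.042, 0.112 and 0.18 ± 0.092, 0.282 in mSOD1 medium. Vcam1 was also higher in mSOD1 than in wtSOD1 medium (0.63 ± 0.094, adjusted p = 5.94e-05). The comparison of wtSOD1 with NTg medium on day 3 gave 15 genes in all (0.0986%), 6 rising (0.0395%) and 9 falling (0.0592%).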

How the data were processed

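Each deposited file lists, per the file headers, a raw read count for every gene of 1 library. Per the submitters' processing notes, the authors used the mouse build mm9, TopHat 1.3.3 and DESeq. The sources used here do not give the counting program, annotation or strandedness, so genes that overlap another in the annotation are uncertain. A further column (VSE) holds deposited values that behave as log2 values, and these served as an alternative. The files list 21761 genes, of which 1798 were at 0 throughout and 7 lacked a symbol. No libraries were identical, and replicates differed by more than sampling noise (chi-square of 2.31 to 21.4 per gene in 30 pairs).

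Counts of all 36 libraries were fitted with edgeR 4.0.16 in R 4.3.3 (TMM scaling, filterByExpr by group, 6 group means, robust quasi-likelihood, 30 residual degrees of freedom, 15207 genes), without a block. P-values were adjusted by Benjamini-Hochberg across every tested gene (threshold 0.05). CPM levels are counts scaled by TMM totals, and intervals cover the spread between libraries only. Labels give each library an experiment number. Same-numbered deviations correlated above 0.1 in all 6 pairs, though in experiments 3 to 6 below the 0.145 reached by libraries of different numbers. The numbers were used to pair the libraries. The block was fitted in the 18 libraries of day 3 and in all 36. The script was tested on simulated counts before use.

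Gene lists (63 lists, 1513 entries, 1510 matched, 13 through synonyms, 1401 tested) are described by counts and medians, without a set test, and some members are not reported here. The members and lists were chosen with earlier results of these data known, and genes are named by lowest p, by largest fold, by lowest p within a list or by the interaction. For the first 2 of these, a gene had to pass, to average at least 1 on the log2 CPM scale and to agree in direction in 5 or more of the 6 pairs. Sod1, Chat, Mki67, Col1a1, Mnx1, Isl1, Gfap, Aif1, Gapdh and Actb are given whatever their values. Promoters are of the 2 members with the lowest p that hold a motif. Other genes, such as those named for passing in every refit, or for a single library, were chosen after their values were seen. Promoters and spans are from RefSeq tables of GRCm38, and no coordinates were converted from mm9. Alternatives were another scaling, filter, tool and fit, thinned counts, and leaving out each library and experiment.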

Additional observations from a re-analysis of the deposited data

Results flagged for a closer look

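In 35 of 296 groups (148 named genes in mSOD1 and in NTg medium), 1 library of the 6 stood apart in level, with a gap to its nearest neighbour above the 95% critical value of Dixon for 6 samples. Chance alone would give about 5% of groups, but some of these genes are named because of a single library, so the share cannot be read against it. The library of NTg experiment 1 stood above the other NTg libraries, at 66.98 CPM for Ephb1 (others 47.35 to 53.65) and 77.37 CPM for Syn2 (others 64.91 to 68.93). It stood below the other NTg libraries, at 161.6 CPM for Ptbp1 (others 188.3 to 200.7), 2369 CPM for Scd2 (others 2576 to 2648) and 64.5 CPM for Col1a2 (others 89.34 to 103.6). The library of NTg experiment 2 stood above the other NTg libraries, at 63.1 CPM for Aggf1 (others 56.75 to 59.07) and 10.12 CPM for Selenbp1 (others 4.164 to 6.033). It stood below the other NTg libraries, at 13.17 CPM for Tnfaip3 (others 17.62 to 18.29). The library of mSOD1 experiment 1 stood above the other mSOD1 libraries, at 288.2 CPM for Il6st (others 242.7 to 259.1), 84.04 CPM for Reg3b (others 49.35 to 62.3), 86.55 CPM for Serpina3n (others 52.83 to 65.41) and 49.17 CPM for Il4ra (others 29.18 to 35.33). It was likewise above them at 30.96 CPM for Ifi27l1 (others 21.49 to 24.22), 31.22 CPM for Ifi27l2a (others 21.65 to 24.32), 419 CPM for Tfrc (others 337.5 to 364.1) and 35.47 CPM for Gcnt2 (others 26.46 to 29.76). It lay above them too, at 107.3 CPM for Nefh (others 65.38 to 75.27). It stood below the other mSOD1 libraries, at 2163 CPM for Scd2 (others 2361 to 2469) and 114 CPM for Fbn1 (others 134.9 to 146.9). The library of mSOD1 experiment 2 stood above the other mSOD1 libraries, at 52.75 CPM for Lig1 (others 46.22 to 48.24) and 2.151 CPM for C130026L21Rik (others 1.443 to 1.674). It stood below the other mSOD1 libraries, at 19.83 CPM for Tnfaip3 (others 22.56 to 23.42). The library of mSOD1 experiment 3 stood above the other mSOD1 libraries, at 158.2 CPM for Atrnl1 (others 126.5 to 138.3), 194.5 CPM for Anks1b (others 144.4 to 156.5), 8.544 CPM for 9530059O14Rik (others 1.871 to 3.287) and 52.77 CPM for Ntrk3 (others 32.44 to 37.2). It was likewise above them at 44.86 CPM for Chrm3 (others 22.07 to 29.39), 113 CPM for Cdh13 (others 69.12 to 81.7), 32.56 CPM for Grin2a (others 15.31 to 18.65) and 39.55 CPM for Grid1 (others 19.27 to 26.78). It lay above them too, at 65.76 CPM for Grm7 (others 30.02 to 42.49) and 22.17 CPM for Gabrg3 (others 7.295 to 11.6). It stood below the other mSOD1 libraries, at 176 CPM for Sec61a1 (others 197.3 to 203.6) and 179.3 CPM for Sept9 (others 195.6 to 199.1). The library of mSOD1 experiment 6 stood above the other mSOD1 libraries, at 7.697 CPM for Hoxc5 (others 4.77 to 5.761).

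The difference between mSOD1 and NTg medium changed between the days in 15 of the 148 genes read in this section. The test was the interaction term of edgeR's quasi-likelihood test with Benjamini-Hochberg adjustment. Other genes that passed it, Ly6a among them, are named above. On the log2 scale, day 3 minus day 1, the change was above 0 for Osmr (0.819, adjusted p = 2.73e-06), Csf2rb2 (1.52, adjusted p = 0.0159) and Nek7 (0.38, adjusted p = 0.0215). Likewise above 0 were Pcsk2 (0.476, adjusted p = 0.0481), Rdh10 (0.686, adjusted p = 0.000629) and Gfra2 (0.712, adjusted p = 0.0357). It was below 0 for Irf9 (-0.653, adjusted p = 0.000629), Oasl2 (-1.71, adjusted p = 0.00951) and Trim25 (-0.658, adjusted p = 0.0244). Also below 0 were Usp18 (-2.46, adjusted p = 1.09e-05), Ddx58 (-1.03, adjusted p = 0.000108) and Irf1 (-0.962, adjusted p = 0.00447). Also below 0 were Ccl2 (-2.46, adjusted p = 0.00951), Dlk1 (-0.498, adjusted p = 0.0215) and Crhbp (-0.963, adjusted p = 0.00471).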

How the results depend on the processing

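The 443 genes of the comparison became 288 without a filter on low counts, 715 by DESeq2, 1511 with a replicate block in all 36 libraries and 4274 with the replicate block in the 18 libraries of day 3. A fit of the 12 libraries compared alone gave 303 genes, and 223 of the 443 passed in it in the same direction. In the 18 libraries of day 3 without a block 552 genes passed, among them 299 of the 443. Leaving out 1 library or experiment gave 32 to 1133 genes. With scaling by library totals 321 of the 443 passed and with the deposited log2-like values 427, and none of the 443 passed in the opposite direction under any alternative run. The 35 genes whose difference changed between the days became 406 with the replicate block, 99 by DESeq2, 8 to 112 when libraries or experiments were left out, and 70 without NTg experiment 6 and wtSOD1 experiment 4 of day 1, an alternative chosen after seeing the data. The 513 genes of mSOD1 against wtSOD1 medium became 320 in a fit of the 2 groups, 783 by DESeq2, 1419 and 3856 with the 2 replicate blocks, and 166 to 1346 when libraries or experiments were left out. The correlation behind the pairing was 0.438 over 7160 genes of higher level, against 0.2205 over all. Over these 7160 genes the highest value between different numbers was 0.489, and 7 of 12 libraries correlated best with their own number. In the fits with the block, leaving out 1 experiment gave 3552 to 4035 genes. The cause of these changes was not tested, other than the smaller number of libraries or the larger number of genes tested where the alternative itself brings it. Among 148 named genes the sign turned for Usp18 alone, which was near 0, at 0.03171 with counts thinned to 10532517 reads, and at -0.06999 to 0.0533 when libraries or experiments were left out. With 120 bases before the start in place of 250, 4 in place of 7 genes past the threshold held their list's motif. At the depth of the smaller libraries, genes near 1 CPM rest on few reads.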
